A study of Mus musculus with 15 samples.

Results

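The 32 genes described here belong to the p53 response and its growth arrest arm: the restraints on p53, genes that hold the cell cycle or cell growth, redox and autophagy genes, death genes and DNA repair genes. A gene was measured if a probe set of the array carried its symbol and no other, which held for 29 of the 32 genes, each with 1 probe set, among 22180 genes in all. Gadd45a and Ddb2 share their probe sets with other gene symbols, and they and Trp53 were not analysed here. The genes were followed in mouse LSK cells, the lineage-negative, Sca-1-positive, Kit-positive bone marrow fraction that holds hematopoietic stem and early progenitor cells.

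The cells were compared in 3 groups of 5 arrays, which the design text calls biological replicates. The first group was taken straight after sorting (non-cultured), the second was kept for 18 h in MyeloCult M5300 medium (without EV), and the third was kept for 18 h in the same medium with extracellular vesicles from AFT cells (with EV). AFT cells are named stromal in the series title. The sources used here do not give the mice's strain, genotype, age or pooling, or the dose of vesicles. Values are log2 signals of single arrays, and a difference of 1 on this scale is a 2-fold change. The groups were compared with limma, a linear model with a variance shared between genes, fitted to all 15 arrays, and p-values were adjusted over all 22180 genes (Benjamini-Hochberg). A gene is termed called, risen or fallen where that adjusted p was under 0.05.

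p53 is a transcription factor that is kept low by the ubiquitin ligase Mdm2 and its partner Mdm4 and is stabilised by DNA damage and other stress. Its targets can stop the cell cycle, repair DNA, limit oxidants or start cell death, and in blood stem cells p53 is known for restraining division. Many of these targets also answer to other signals. Btg2, Gadd45b, Plk2 and Plk3 are known as early response genes, which serum, cytokines or stress can switch on within a short time.

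The array medians lay between 4.62 and 4.74. Of 8 LSK markers measured, Kit had mean log2 signals of 9.62 in non-cultured cells, 10 without EV and 9.88 with EV, Cd34 of 10.6, 10.4 and 10.4 and Flt3 of 8.97, 9.60 and 9.62. Without EV, Kit and Flt3 rose and Cd48 fell (log2 -0.80), and with EV Flt3 rose and Hlf fell (-0.38). Without EV 5 of the 8 lay below the non-cultured mean (median log2 -0.19), among them the stem cell markers Slamf1 (-0.51), Hlf (-0.28) and Procr (-0.20), which were not called there. Array replicate 1 of the group with EV correlated less with its group (mean r 0.964) than the other 14 arrays did with theirs (0.974 to 0.982). Myeloid markers moved with culture: of 8 measured, 3 rose and 1 fell without EV, and their mean log2 signal was 7.12 to 7.68 per non-cultured array against 8.20 to 8.47 without EV and 8.07 to 8.36 with EV. The rises were in Csf1r (log2 2.24 without EV and 2.38 with EV), Lyz2 (1.78 and 1.83) and S100a8 (2.75 and 2.67), and Mpo fell. S100a8 was widely spread in non-cultured cells (5.92 to 9.37, SD 1.72). Other markers moved less: of 5 erythroid genes Car1 fell, of 5 megakaryocyte genes Itga2b rose, and of 7 stromal genes Col1a2 and Cxcl12 rose with EV alone against non-cultured cells (0.31 and 0.48), a difference from cells without EV that was not called. Between the cultured groups the 7 stromal genes had a median log2 of 0.22, against 0.01 over all genes, 5 above and 2 below 0. Of the 7, 3 had an unadjusted limma p under 0.05 (6.82% of all genes) and 0 were called. None of 4 B cell and 4 T cell genes was called, with mean log2 signals of 4.04 to 4.63 and 3.62 to 3.99 per array. Among all genes 13.6% were called without EV and 14.1% with EV, against non-cultured cells. The part that these marker shifts play in the results was not tested. In bulk RNA, fewer cells of a type and less RNA per cell cannot be told apart.

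Promoter sequences are shown for the 3 members whose window holds a cyclic AMP response element (CRE), of which Plk2 and Btg2 fell after culture and Ppm1d was not called. They are shown also for Plk3, the paralog of Plk2 that was not called, and for Ccng1, which rose. Each is the stretch of 200 bases before the annotated start site, 5′ to 3′, from RefSeq on GRCm38.p6. For Ccng1 the annotated gene begins 23 bases before the start site used, within the printed stretch. Capitals in Plk2, Btg2 and Ppm1d mark the CRE, TGACGTCA, which CREB and ATF proteins bind. In Plk3 they mark its core TGACG, and in Ccng1 the p53 decamer, the repeat unit of the p53 consensus.
Plk2, chr13:110394844-110395043, plus strand: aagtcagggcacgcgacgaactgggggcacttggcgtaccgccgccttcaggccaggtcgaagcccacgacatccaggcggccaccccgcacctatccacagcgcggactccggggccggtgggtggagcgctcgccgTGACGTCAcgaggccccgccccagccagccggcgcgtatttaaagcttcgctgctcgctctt
Btg2, chr1:134079156-134079355, minus strand: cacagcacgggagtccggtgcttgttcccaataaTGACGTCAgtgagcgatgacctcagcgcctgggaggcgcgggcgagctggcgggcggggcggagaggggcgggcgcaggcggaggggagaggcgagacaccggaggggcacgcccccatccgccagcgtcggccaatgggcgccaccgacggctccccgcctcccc
Ppm1d, chr11:85311054-85311253, plus strand: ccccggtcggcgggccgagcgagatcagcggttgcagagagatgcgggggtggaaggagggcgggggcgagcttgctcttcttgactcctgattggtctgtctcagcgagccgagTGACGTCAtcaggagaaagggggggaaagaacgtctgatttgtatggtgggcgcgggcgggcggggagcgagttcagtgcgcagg
Plk3, chr4:117133964-117134163, minus strand: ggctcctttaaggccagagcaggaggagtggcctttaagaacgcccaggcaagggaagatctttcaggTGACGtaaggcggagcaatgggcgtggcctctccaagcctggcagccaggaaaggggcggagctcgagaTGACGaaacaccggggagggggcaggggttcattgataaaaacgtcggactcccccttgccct
Ccng1, chr11:40755287-40755486, minus strand: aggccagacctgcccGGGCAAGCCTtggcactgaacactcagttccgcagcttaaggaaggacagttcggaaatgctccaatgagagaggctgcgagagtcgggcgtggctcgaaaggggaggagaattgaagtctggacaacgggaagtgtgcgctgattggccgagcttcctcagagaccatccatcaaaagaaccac

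Among the 29 measured members, 23 have a promoter window (250 bases before to 50 after the start site) in the RefSeq table, and Trp53inp1, Tnfrsf10b, Zmat3, Rrm2b, Xpc and Perp have none there. On either strand, the CRE was found in 3 of the 23 (Plk2, Btg2 and Ppm1d), against 2.03% of all 27025 genes with a window. Gadd45b, which fell about as far as Btg2, has none in its window. The p53 decamer was found in 7 (Mdm2, Ppm1d, Ccng1, Sesn1, Ei24, Aen and Polk), against 9.55% of all genes. The core TGACG, which also lies within the CRE, was in 10 of 23 against 23% of all genes. An EGR site, GCGNGGGCG, was in 5 (Ppm1d, Btg2, Gadd45b, Sesn1 and Dram1) against 6.27%, and a FOXO site, GTAAACA, in 4 (Mdm2, Btg1, Sesn1 and Eda2r) against 4.05%. The CCAAT box, CCAAT, was in 15 against 41.1%, the AP-1 site, TGANTCA, in Mdm4 alone against 8.97%, the CArG box in Tigar alone against 1.81% and the kappaB site in 0 against 5.14%. These counts describe letters in a short window. They include members that fell, rose and were not called alike, and the motifs were chosen with the changes known.

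Culture without EV changed the level of 12 of the 29 members, of which 7 fell and 5 rose, and 17 were not called. Among all genes 13.6% were called in this comparison, 6.75% higher and 6.88% lower. With EV, 13 members differed from non-cultured cells, 7 lower and 6 higher, where 14.1% of all genes were called, 6.28% higher and 7.85% lower. The median log2 difference over the members was 0.00 without EV and -0.01 with EV, against 0.01 and 0.04 over all genes, while the median size of the difference was 0.26 and 0.40, against 0.13 and 0.15. Members lay on both sides of 0 in both comparisons, without a shared direction. Both comparisons use the same 5 non-cultured arrays and are given side by side only.

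The count of 5 higher members without EV became 3 when non-cultured replicate 1, non-cultured replicate 3, without EV replicate 2 or without EV replicate 5 was left out. The count of 6 higher with EV became 3 without non-cultured replicate 1, and without array replicate 1 of the group with EV it was 5, with 7 lower. The members called lower numbered 6 or 7 in every fit that left out 1 array. Non-cultured and cultured arrays did not overlap for 9 of 29 members without EV and 8 with EV, against 12% and 11.2% of all genes.

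**Figure D1:**
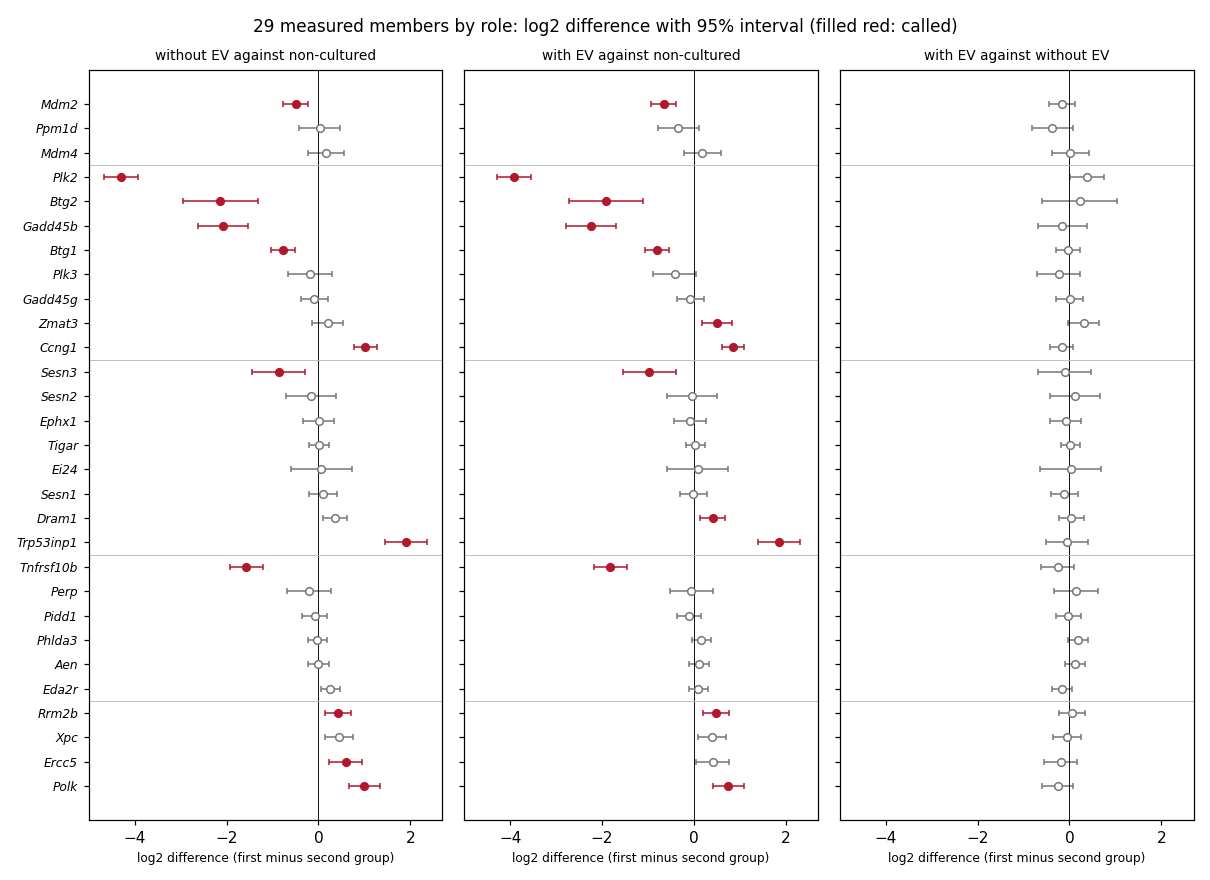
Log2 difference of the 29 measured members in 3 comparisons, one panel each, with 95% intervals of the limma fit and 5 arrays per group. Filled red points are called and open grey points are not, and horizontal lines part the roles. Plk2 lies farthest from 0 in both comparisons with non-cultured cells, and no member is called in the right panel.

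The restraints on p53 differed among themselves. Mdm2 (probe set 17245248), the ubiquitin ligase that is both a target and the main inhibitor of p53, had log2 signals of 8.22, 8.10, 8.24, 7.89 and 8.17 in non-cultured replicates 1 to 5. Without EV they were 7.81, 7.77, 7.65, 7.24 and 7.69, and with EV 7.31, 7.65, 7.76, 7.46 and 7.17. All 10 cultured arrays lay below all 5 non-cultured ones. Mdm2 fell 1.41-fold without EV (log2 -0.50, SE 0.13, limma adjusted p = 0.0168, 5 arrays in each group as throughout) and 1.58-fold with EV (log2 -0.66, SE 0.13, adjusted p = 0.00241). Mdm4, which binds p53 and blocks its activity, was not called, with differences of 0.16 and 0.18 (SE 0.19). The phosphatase Ppm1d, which removes phosphates from p53 and its kinases, was not called either. It differed by 0.03 without EV and by -0.34 with EV (SE 0.21), and by -0.14 with EV when array replicate 1, its lowest at 5.73, was left out.

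The growth arrest and cell cycle genes held the largest changes. Of 8 measured, 4 fell and 1 rose without EV, and 4 fell and 2 rose with EV. This makes 62.5% and 75% called, against 13.6% and 14.1% of all genes. Plk2 (probe set 17289794), a polo-like kinase that acts in early cell cycle entry and stress responses, had log2 signals of 8.23, 7.90, 8.17, 8.21 and 8.12 in non-cultured replicates 1 to 5. It stood at 3.77, 3.72, 3.60, 3.53 and 4.48 without EV and at 3.72, 4.38, 4.51, 4.11 and 4.30 with EV. The gap between the lowest non-cultured and the highest cultured array was far wider than the spread within any group. Plk2 fell 19.7-fold without EV (log2 -4.30, SE 0.17, limma adjusted p = 2.83e-10) and 15.1-fold with EV (log2 -3.92, SE 0.17, adjusted p = 6.74e-10). These are folds of the deposited signals: the cultured means (3.82 and 4.20) lay below the array medians and are not shown to be above background.

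Gadd45b (probe set 17235511), a stress sensor that binds cell cycle and MAP kinase pathway proteins, gave 7.74, 7.54, 7.19, 7.74 and 7.39 in non-cultured cells. It gave 5.62, 5.75, 5.79, 5.15 and 4.88 without EV and 6.02, 5.09, 5.41, 4.35 and 5.56 with EV. The groups did not overlap, and the arrays with EV were the most spread (SD 0.62). Gadd45b fell 4.23-fold without EV (log2 -2.08, SE 0.26, limma adjusted p = 3.34e-05) and 4.71-fold with EV (log2 -2.23, SE 0.26, adjusted p = 1.65e-05).

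The antiproliferative coregulators Btg2 and Btg1, which bind the CCR4-NOT deadenylase complex, both fell. Btg2 (probe set 17227089) stood at 8.78, 8.71, 9.0, 9.50 and 9.62 in non-cultured replicates 1 to 5, at 6.84, 6.45, 8.07, 7.21 and 6.36 without EV, and at 7.85, 7.41, 5.69, 7.55 and 7.54 with EV. Replicate 3 was the highest array without EV and the lowest with EV, so the cultured groups were wide (SD 0.69 and 0.86), yet none reached the non-cultured arrays. The fall was 4.39-fold without EV (log2 -2.13, SE 0.38, limma adjusted p = 0.00108) and 3.77-fold with EV (log2 -1.91, SE 0.38, adjusted p = 0.00258), or log2 -1.53 without array replicate 3 of the group with EV.

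Btg1 (probe set 17236787) was tighter, with 8.60, 8.52, 8.50, 8.15 and 8.12 in non-cultured cells, 7.67, 7.55, 7.92, 7.51 and 7.38 without EV, and 7.45, 7.75, 7.59, 7.62 and 7.46 with EV. It fell 1.71-fold without EV (log2 -0.77, SE 0.12, limma adjusted p = 0.000336) and 1.75-fold with EV (log2 -0.81, SE 0.12, adjusted p = 0.000231). Non-cultured replicates 4 and 5 were the lowest of their group for Btg1 and the highest for Btg2.

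Ccng1 (probe set 17261865), cyclin G1, a p53 target that recruits the phosphatase PP2A to Mdm2, went the other way. Its log2 signals were 8.02, 7.70, 8.23, 8.04 and 7.73 in non-cultured cells, 8.69, 8.92, 9.15, 8.99 and 9.05 without EV, and 8.59, 8.93, 8.91, 8.77 and 8.77 with EV. Every cultured array exceeded every non-cultured one. Ccng1 rose 2.02-fold without EV (log2 1.02, SE 0.12, limma adjusted p = 1.78e-05) and 1.80-fold with EV (log2 0.85, SE 0.12, adjusted p = 1e-04).

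Zmat3 (probe set 17404585), an RNA-binding p53 target, was called higher with EV and not without EV, while its difference between the cultured groups was not called. It read 5.29, 5.27, 5.53, 5.36 and 5.22 in non-cultured cells, 5.76, 5.15, 5.45, 5.79 and 5.53 without EV, and 6.27, 5.67, 6.15, 5.64 and 5.47 with EV. The high values with EV were those of replicates 1 and 3, and the groups overlapped. The log2 difference from non-cultured cells was 0.20 without EV (SE 0.16, limma adjusted p = 0.521) and 0.51 with EV (SE 0.16, adjusted p = 0.0397). The call was lost in 7 of 15 fits that left out 1 array, those without non-cultured replicates 1, 2, 4 or 5, without EV replicate 5 or with EV replicates 1 or 3 (adjusted p 0.0503 to 0.0998), and with the spread of the 2 groups alone (adjusted p = 0.0512).

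Gadd45g, the third Gadd45 stress gene, was not called, at log2 -0.09 without EV and -0.08 with EV (SE 0.14). Plk3, another polo-like stress kinase, was not called at -0.18 and -0.42 (SE 0.22). Array replicate 3 with EV read 5.41 for Plk3 while the other 4 read 6.69 to 6.76, and without it the difference was -0.15 (SE 0.13). Non-cultured replicate 4, without EV replicate 5 and with EV replicate 4 all read exactly 6.73951 for Plk3. Exact ties between arrays also occur for Pidd1, and the sources used here do not explain them. What such ties mean for the SE, and for the search for outlying arrays below, was not examined.

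**Figure D2:**
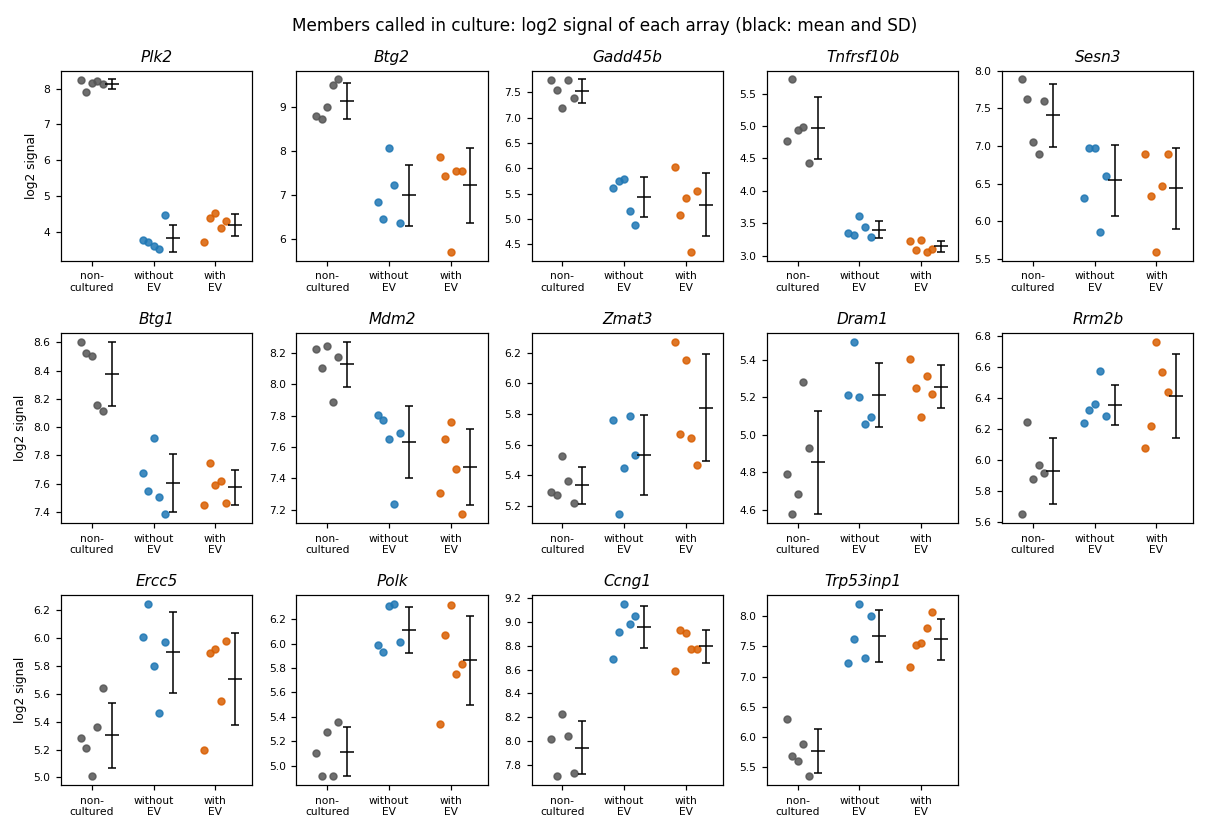
Log2 signal of each array for the 14 members called in at least 1 comparison with non-cultured cells, ordered by their difference without EV. Grey points are non-cultured, blue without EV and orange with EV, and black marks give the mean and SD of 5 arrays. For Plk2 all non-cultured arrays lie at or above 7.90 and all cultured arrays at or below 4.51, and the axes differ between panels and do not start at 0.

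Redox, nutrient and autophagy genes were mostly not called. Of 8 measured, 1 rose and 1 fell without EV, and 2 rose and 1 fell with EV. This makes 25% and 37.5% called, against 13.6% and 14.1% of all genes. Trp53inp1 (probe set 17411751), a p53 cofactor that also promotes autophagy, read 6.30, 5.68, 5.60, 5.88 and 5.34 in non-cultured cells, 7.23, 7.62, 8.21, 7.32 and 8.0 without EV, and 7.15, 7.52, 7.56, 7.80 and 8.07 with EV. No cultured array came down to the non-cultured ones. It rose 3.76-fold without EV (log2 1.91, SE 0.22, limma adjusted p = 1.55e-05) and 3.62-fold with EV (log2 1.86, SE 0.22, adjusted p = 2.05e-05), the largest rise among the 29 measured members.

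Sesn3 (probe set 17514732), a sestrin that is best known as a FOXO target and restrains mTORC1, read 7.89, 7.63, 7.05, 6.89 and 7.59 in non-cultured cells, 6.31, 6.97, 6.97, 5.86 and 6.60 without EV, and 6.89, 6.34, 5.59, 6.47 and 6.90 with EV. The groups overlapped at their edges. Sesn3 fell 1.82-fold without EV (log2 -0.87, SE 0.27, limma adjusted p = 0.0437) and 1.96-fold with EV (log2 -0.97, SE 0.27, adjusted p = 0.0231). Without EV its call was lost in 8 of 15 fits that left out 1 array, those without non-cultured replicates 1, 2 or 5, without EV replicates 1, 4 or 5 or with EV replicates 2 or 4 (adjusted p 0.0541 to 0.115). After quantile normalization it was lost as well (adjusted p = 0.0542). With EV it was lost in 4 fits, without non-cultured replicates 1, 2 or 5 or with EV replicate 3 (adjusted p 0.0509 to 0.0661).

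Dram1 (probe set 17243868), a lysosomal membrane protein that links p53 to autophagy, read 4.79, 4.58, 4.69, 5.28 and 4.93 in non-cultured cells, 5.21, 5.50, 5.20, 5.06 and 5.10 without EV, and 5.41, 5.25, 5.10, 5.32 and 5.22 with EV. Non-cultured replicate 4 lay within the cultured range. Its difference was 0.36 without EV (SE 0.12, limma adjusted p = 0.0689, called without non-cultured replicate 4 at adjusted p = 0.00886) and 0.40 with EV (SE 0.12, adjusted p = 0.0391). The call with EV was lost in 8 of 15 fits that left out 1 array, without non-cultured replicates 1, 2, 3 or 5 or with EV replicates 1, 2, 4 or 5 (adjusted p 0.0521 to 0.105), and with the spread of the 2 groups alone (adjusted p = 0.0644).

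Sesn1 and Sesn2, the p53-responsive sestrins, were not called, at 0.10 and -0.16 without EV and -0.01 and -0.04 with EV. Neither were Tigar, a fructose bisphosphatase that lowers glycolytic flux (0.01 and 0.03), the epoxide hydrolase Ephx1 (0.00 and -0.08) and Ei24, an endoplasmic reticulum protein of autophagy (0.06 and 0.08). Ei24 was among the noisiest with EV (SD 0.79). Tigar was tighter (SD 0.15), but its group means of 4.53 to 4.56 lay below the array medians. A small SD at that level need not mean a better measurement.

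Among the 6 death and survival genes Tnfrsf10b alone was called, lower in both cultured groups. This makes 16.7% called in each comparison, near the 13.6% and 14.1% of all genes. Tnfrsf10b (probe set 17301697), the mouse TRAIL death receptor, read 4.77, 5.72, 4.94, 4.98 and 4.44 in non-cultured cells, 3.35, 3.32, 3.61, 3.44 and 3.29 without EV, and 3.23, 3.08, 3.24, 3.06 and 3.10 with EV. The 3 groups did not overlap at all, although the gene belongs to the dimmest 40% of all genes and its cultured values may lie near background, which the deposited values do not show. It fell 2.96-fold without EV (log2 -1.57, SE 0.17, limma adjusted p = 9.43e-06) and 3.55-fold with EV (log2 -1.83, SE 0.17, adjusted p = 1.85e-06). The death-domain adaptor Pidd1 differed by -0.08 without EV and -0.11 with EV, and the Akt inhibitor Phlda3 by -0.02 and 0.16. Eda2r, a receptor of the TNF receptor family, differed by 0.26 and 0.10, the nuclease Aen by -0.01 and 0.11 and the desmosomal protein Perp by -0.20 and -0.06, and none of these 5 was called. Eda2r (group means 3.28 to 3.54) and Aen (4.49 to 4.61) lay below the array medians, and Perp (4.56 to 4.76) lay near them. A fall of Eda2r, Aen or Perp may have gone unseen.

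Nucleotide supply and DNA repair genes were all measured above the non-cultured mean in both cultured groups. Of 4 measured, 3 rose and none fell without EV, and 2 rose and none fell with EV. This makes 75% and 50% called higher, against 6.75% and 6.28% of all genes. Of these calls only those of Polk held in every fit, as given below. Polk (probe set 17295212), a translesion DNA polymerase, read 5.10, 4.92, 5.28, 4.92 and 5.36 in non-cultured cells, 5.99, 5.93, 6.31, 6.33 and 6.01 without EV, and 5.34, 6.07, 6.32, 5.75 and 5.83 with EV. All arrays without EV lay above the non-cultured ones, and replicate 1 with EV reached into their range. Polk rose 2.0-fold without EV (log2 1.0, SE 0.16, limma adjusted p = 0.000373) and 1.68-fold with EV (log2 0.75, SE 0.16, adjusted p = 0.00395).

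Ercc5 (probe set 17212423), the XPG endonuclease of nucleotide excision repair, read 5.29, 5.21, 5.01, 5.36 and 5.64 in non-cultured cells, 6.01, 6.25, 5.80, 5.46 and 5.97 without EV, and 5.20, 5.89, 5.92, 5.55 and 5.98 with EV. It rose 1.51-fold without EV (log2 0.60, SE 0.17, limma adjusted p = 0.0273), with 24 of 25 pairs of arrays in that direction. This call was lost in 6 of 15 fits that left out 1 array, without non-cultured replicates 1, 2 or 3 or without EV replicates 1, 2 or 5 (adjusted p 0.0545 to 0.0744). With EV the difference was 0.40 (SE 0.17, adjusted p = 0.139). Without array replicate 1 of the group with EV, the lowest of its group, it was 0.53 and called (adjusted p = 0.0334).

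Rrm2b (probe set 17316610), the p53-inducible ribonucleotide reductase subunit, read 5.65, 6.24, 5.87, 5.97 and 5.91 in non-cultured cells, 6.24, 6.32, 6.36, 6.57 and 6.28 without EV, and 6.08, 6.22, 6.76, 6.57 and 6.43 with EV. Non-cultured replicate 2 matched the lower cultured arrays. Rrm2b rose 1.34-fold without EV (log2 0.42, SE 0.13, limma adjusted p = 0.0422) and 1.4-fold with EV (log2 0.48, SE 0.13, adjusted p = 0.0205). The call without EV was lost in 9 of 15 fits that left out 1 array, without non-cultured replicates 1, 3, 4 or 5, without EV replicates 2, 3, 4 or 5 or with EV replicate 5 (adjusted p 0.0519 to 0.115), and with a trended, robust variance (adjusted p = 0.0644). The call with EV was lost in 3, without non-cultured replicate 1 or with EV replicates 3 or 4 (adjusted p 0.0525 to 0.0604). Xpc, which recognises damaged DNA, stayed just outside the threshold at 0.44 without EV (SE 0.14, adjusted p = 0.0523) and 0.39 with EV (adjusted p = 0.0870). It was called in 9 of the 23 alternative fits without EV, of which 4 left out 1 array.

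**Figure D3:**
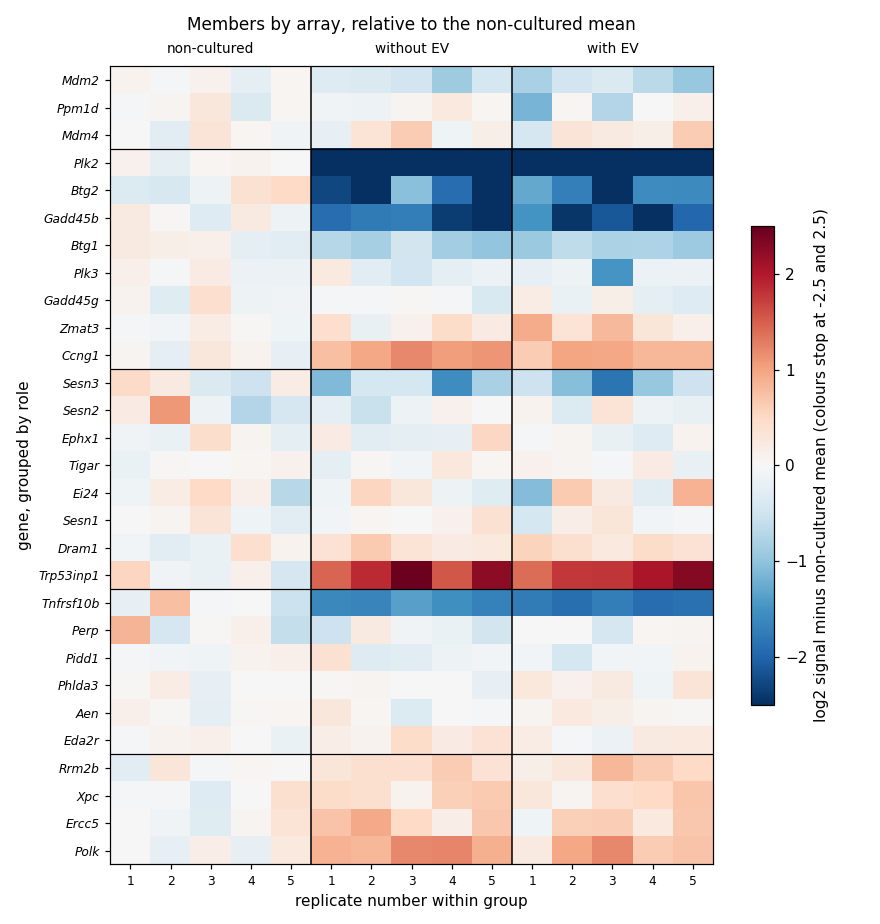
Log2 signal of each measured member on each of the 15 arrays minus the member's non-cultured mean, with rows grouped by role and columns by group and replicate number. Blue is below and red above the non-cultured mean, and colours stop at -2.5 and 2.5. Plk2, Btg2, Gadd45b, Btg1 and Tnfrsf10b are blue and Ccng1 and Trp53inp1 red on all 10 cultured arrays, while most other rows stay pale.

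Paralogous members were then set against each other within each array, to describe how relatives of one family differed in culture. The pairs were chosen with earlier results of these data known, so their p-values are not independent support, and the sestrin pairs share genes. Of 9 pairs listed, 7 had both genes measured. A two-sided exact permutation test over the 5 arrays without EV and the 5 non-cultured ones was used, with 252 splits and a smallest possible p of 0.00794, and p-values were adjusted over the 7 pairs (Benjamini-Hochberg). Plk2 fell relative to Plk3 by 4.12 on the log2 scale (exact p = 0.00794, adjusted p = 0.0185). Gadd45b fell relative to Gadd45g by 1.99 (exact p = 0.00794, adjusted p = 0.0185). Gadd45g was dim before culture (mean log2 signal 4.52, below the array medians), so a fall of Gadd45g of that size could hardly have been seen. Btg1 gained 1.36 relative to Btg2 (exact p = 0.00794, adjusted p = 0.0185), since both fell and Btg2 fell more.

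Mdm2 fell relative to Mdm4 by 0.66 (exact p = 0.0238, adjusted p = 0.0417), and Sesn1 gained 0.97 relative to Sesn3 (exact p = 0.0317, adjusted p = 0.0444). Sesn1 against Sesn2 (0.26, exact p = 0.492, adjusted p = 0.492) and Sesn2 against Sesn3 (0.71, exact p = 0.0873, adjusted p = 0.102) did not pass. The 5 pairs called became 3 when non-cultured replicate 1 or 5 or without EV replicate 3, 4 or 5 was left out, with fewer splits to draw on. Between the cultured groups 0 of the 7 pairs passed, and the smallest exact p was 0.143, for Plk2 against Plk3 (adjusted p = 0.778).

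**Figure D4:**
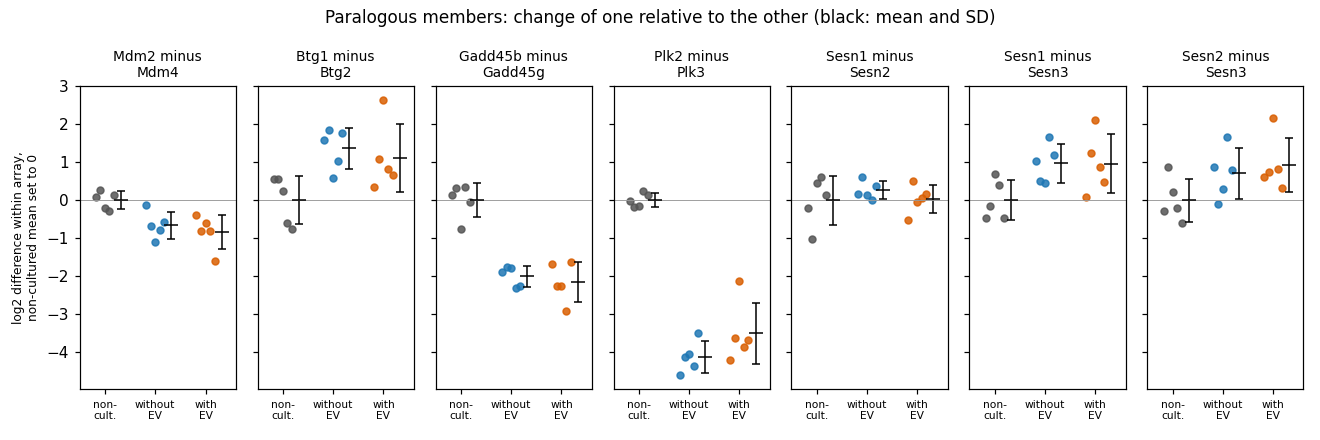
Within-array log2 difference of 7 pairs of paralogous members, with the mean of the 5 non-cultured arrays set to 0. Points are arrays, and black marks give the mean and SD of 5 arrays per group. Plk2 minus Plk3 moves by -4.12 without EV, Gadd45b minus Gadd45g by -1.99, and Sesn1 minus Sesn2 stays near 0.

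No member was called between the cultured groups, the comparison that bears on the vesicles. With EV against without EV, limma called 0 of the 29 members, where 0.198% of all genes were called, 0.180% higher and 0.0180% lower. In this fit, with a spread pooled over the 3 groups, Plk2 was the 1 member with an unadjusted p under 0.05 (6.82% of all genes). The fits with a trended variance, with array weights and without array replicate 1 with EV also called 0. Plk2 was 0.38 higher with EV on the log2 scale (SE 0.17, limma adjusted p = 0.715), with 20 of 25 pairs of arrays in that direction. Both groups stayed far below the non-cultured level.

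Tnfrsf10b was the single member whose cultured groups did not overlap (1.20% of all genes). It was lower with EV in 25 of 25 array pairs (log2 difference -0.26, SE 0.17, limma adjusted p = 0.797). This SE pools the 3 groups, whose SDs were 0.47 in non-cultured cells, 0.13 without EV and 0.09 with EV. The fit with the spread of the 2 groups alone did not call it either. Its cultured values may lie near background. The 95% intervals of the difference lay within 1 log2 unit of 0 for 28 of 29 members. The exception was Btg2, whose interval ran from -0.59 to 1.03 (difference 0.22). Narrow intervals were found for Btg1 (-0.29 to 0.22), Ccng1 (-0.41 to 0.08) and Tigar (-0.19 to 0.23), the last a gene below the array medians. A wide one was that of Ei24 (-0.64 to 0.69). For Ppm1d (-0.37, interval -0.82 to 0.07) and Zmat3 (0.31, interval -0.03 to 0.64) the intervals reach further on one side of 0. Without array replicate 1 with EV, their differences were -0.17 and 0.20.

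Other genes of the p53 pathway were taken from lists of further targets and of upstream kinases and partners. Of 39 measured targets 2 rose and 7 fell without EV (median log2 -0.06), and 4 rose and 9 fell with EV (-0.05). That is 23.1% and 33.3% called, against 13.6% and 14.1% of all genes. Cdkn1a, the gene of the p21 cyclin-dependent kinase inhibitor and the classic p53 target, read 9.97, 9.99, 9.81, 9.45 and 9.30 in non-cultured cells, 8.18, 8.42, 8.68, 8.11 and 8.11 without EV, and 8.29, 8.57, 8.28, 8.70 and 8.15 with EV. It fell in both groups (log2 -1.4 and -1.31, SE 0.16, limma adjusted p = 1.51e-05 and 3.09e-05). The replication clamp Pcna fell too (-1.33 and -1.39, SE 0.11), as did the cytokine Lif (-2.04 and -1.79, SE 0.15) and the cell cycle coactivator Sertad1 (-1.16 and -1.14, SE 0.20). Trp53cor1, the non-coding RNA known as lincRNA-p21 that lies next to Cdkn1a, rose by 1.28 without EV (SE 0.32, adjusted p = 0.0128) and 1.66 with EV (adjusted p = 0.00198).

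The pro-death targets Bbc3 (-0.07 and -0.27, SE 0.20), Pmaip1 (-0.51 and -0.48, SE 0.18) and Fas (0.42 and 0.14, SE 0.22) were not called in either comparison. Fas lay below the array medians (group means 3.95 to 4.38), so a fall of it may have gone unseen. Bax, also in that list, was not measured. Other death targets of the same list, named after their values were seen, were called: Apaf1, the apoptosome scaffold, rose without EV (0.42, adjusted p = 0.0422) and was not called with EV (0.23, adjusted p = 0.281), and Siva1 fell in both (-0.48 and -0.38, adjusted p = 0.0133 and 0.0496). Of 26 measured upstream kinases and partners, 4 rose and 3 fell without EV, and 3 rose and 3 fell with EV. That is 26.9% and 23.1% called, against 13.6% and 14.1% of all genes. The checkpoint kinase Chek1 fell (-1.85 and -1.88, SE 0.15) while Chek2 rose (1.39 and 1.04, SE 0.25), and the damage kinase Atm was not called (0.35 and 0.20, SE 0.16). Trp53bp2, a p53-binding protein that favours its death targets, fell (-0.98 and -0.92, SE 0.20). Its family member of like role, Ppp1r13b, also named after its values were seen, rose (0.57 and 0.53, SE 0.15, limma adjusted p = 0.0188 and 0.0268). Ckap2, a spindle protein, fell (-0.83 and -0.71, SE 0.17), and Rffl, a ubiquitin ligase, rose (0.67 and 0.53, SE 0.13). Ptpn14, a phosphatase that restrains YAP, differed by 0.41 without EV (adjusted p = 0.0739) and rose by 0.68 with EV. Between the cultured groups, limma called 0 of the 39 targets and 0 of the 26 upstream genes. In each list 2 genes had an unadjusted p under 0.05, as did 6.82% of all genes. The smallest adjusted p were those of the chromatin remodeller Pbrm1 (-0.35, adjusted p = 0.463) and the thiamine transporter Slc19a2 (0.40, adjusted p = 0.581). Hipk2 (-0.22), Rap2b (-0.32), Kat5 (-0.30), Pvt1 (0.22), Rchy1 (-0.40) and Crebbp (-0.20) followed, with adjusted p between 0.715 and 0.765.

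Immediate early genes moved with culture, and their values are given beside the members that are known to share that behaviour. Of 20 measured, 19 fell without EV and 20 with EV (median log2 -2.63 and -2.39), where 6.88% and 7.85% of all genes fell. Their mean log2 signal was 8.55 to 8.85 per non-cultured array, 6.05 to 6.17 without EV and 5.96 to 6.28 with EV. Fos differed by -3.71 without EV, Jun by -3.65, Egr1 by -4.23 and Nr4a1 by -5.39. Fos read 8.76, 8.53 and 8.56 in non-cultured replicates 1 to 3 and 9.41 and 9.42 in replicates 4 and 5, the arrays in which Btg2 was also highest. Egr1 and Nr4a1 were highest in these arrays too, while Jun, Plk2 and Gadd45b did not part in this way. Plk3, the other member named above as an early response gene, had a non-cultured mean of 6.89 and was not called. It differed by -0.18 without EV and -0.42 with EV (SE 0.22). Whether the fall of Plk2, Btg2 and Gadd45b is part of the same change was not tested.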

How the data were processed

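Per the labels' protocols, total RNA of 15 LSK samples was extracted, and biotinylated targets from 500 pg were hybridised to Affymetrix Mouse Gene 2.0 arrays. The authors deposited 1 table of 41345 probe sets on a log scale, read as log2 from its range (about 1.4 to 13). The submitters' processing notes name MAS5 without saying what it did, and for background correction and normalization the step is not given in the sources used here. No signal over background is given, and the number of arrays limits the precision. The deposited log2 values were used without further normalization. No pair of arrays was identical.

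Symbols came from the platform annotation, in which 23521 probe sets have 1 symbol, 1814 several, and 16010 are unnamed here. Entrez identifiers matched RefSeq (GRCm38.p6) for 23328, and 0 symbols changed. The brightest probe set stood for each of 22180 genes. limma 3.58.1 in R 4.3.3 (lmFit, eBayes) fitted group means to 15 arrays (12 residual degrees of freedom, 3.66 prior). SE are the moderated ones, and tests are two-sided. The code of the fit was run on simulated data, with shifts added to independent normal noise and no array or batch effect. Such a run checks the code and cannot show faults of these arrays.

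The members, lists, pairs and motifs were chosen with earlier results of these data known. Members called are given with every array's value, and of other pathway genes those with the smallest adjusted p and a few fixed ones are named. Alternatives were quantile normalization, median centring, no dimmest 40% of genes, mean of probe sets, the spread of 2 groups alone, array weights, a replicate block, a trended robust variance, and leaving out each array. Labels give no batch, so none was examined, and p-values measure the spread between these samples.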

Additional observations from a re-analysis of the deposited data

Results flagged for a closer look

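Each member was searched in each group of 5 for an array far from the others (Dixon's test at 5%), 87 searches in all, of which chance flags about 1 in 20. Array replicate 3 with EV stood low for Plk3 (5.41, next lowest 6.69), Btg2 (5.69, next lowest 7.41) and Perp (4.34, next lowest 4.76). In the group without EV, replicate 5 stood high for Plk2 (4.48, next highest 3.77) and low for Gadd45g (4.15, next lowest 4.48) and Phlda3 (4.96, next lowest 5.16), and replicate 4 stood low for Mdm2 (7.24, next lowest 7.65). Non-cultured replicate 3 stood low for Aen (4.26, next lowest 4.52). Without the array concerned, Plk3 differed by -0.15 between cells with EV and non-cultured cells, against -0.42 with it, and Btg2 by -1.53 against -1.91.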

How the results depend on the processing

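No direction of a called member reversed in the 23 alternative fits. Under the 8 alternatives that keep all arrays, 4 to 6 members were higher without EV (5 in the fit reported) and 6 or 7 lower (7), and with EV 4 to 7 were higher (6) and 6 or 7 lower (7). Leaving out each array gave 3 to 6 and 6 to 7 without EV, 3 to 6 and 6 to 7 with EV, 0 to 0 between the cultured groups in both directions, 3 to 6 called paralog pairs for culture without EV and 0 to 0 for EV. Calls that held in every fit run were those of Plk2, Btg1, Btg2, Gadd45b, Mdm2, Tnfrsf10b, Ccng1, Trp53inp1 and Polk in both comparisons with non-cultured cells. Without the dimmest genes 27 members were left, and Tnfrsf10b and Eda2r were not tested. The labels do not say whether the replicate numbers pair the arrays, and a check of the values cannot settle it. Correlations of same-numbered deviations were -0.12 to 0.19, with 5 of 15 arrays closest to their own number. Between the cultured groups these correlations were all above 0 (0.02 to 0.19). With the replicate block, 6 members were higher and 7 lower without EV, 6 and 7 with EV, and 0 and 0 between the cultured groups. Under it Xpc became called against non-cultured cells in both cultures (adjusted p = 0.0144 and 0.0271) and Dram1 with EV was lost (adjusted p = 0.0699). Over all genes, the 4 called lower with EV against without EV became 2 after quantile normalization and 0 with the spread of the 2 groups alone, and 0 to 4 when 1 array was left out. Dim genes cannot be told from background.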

Other observations

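Within the non-cultured group, replicates 4 and 5 had the highest Btg2 (9.50 and 9.62, others 8.71 to 9.0), Fos (9.41 and 9.42, others 8.53 to 8.76) and Egr1 (10.4 and 10.4, others 9.66 to 9.77). The same arrays had the lowest Btg1 (8.15 and 8.12, others 8.50 to 8.60) and Cdkn1a (9.45 and 9.30, others 9.81 to 9.99). Plk2 (8.21 and 8.12, others 7.90 to 8.23), Gadd45b (7.74 and 7.39, others 7.19 to 7.74) and Jun (9.70 and 9.43, others 9.58 to 9.69) did not part in this way. Cell type markers parted too: the mean of the 8 myeloid markers was 7.12 and 7.16 in replicates 4 and 5 and 7.68 in each of the others, and that of the 8 LSK markers 8.06 and 8.08 against 7.66 to 7.87. S100a8 alone spanned 5.92 to 9.37 in this group (SD 1.72), and how much of the myeloid split rests on it was not examined. The labels give no batch or sort, and this pattern was noticed after the values were seen and was not tested.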
